A study of Homo sapiens with 12 samples.

Results

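The interferon regulatory factors (IRFs) are a family of transcription factors that share a DNA-binding domain recognising GAAA repeats in the promoters of interferon genes and interferon-stimulated genes. Some members respond directly to infection or cytokines, some are held inactive until phosphorylated, and some restrain the others or act in the development of blood cells. In pigment cells the family is known chiefly for IRF4, which works with the melanocyte regulator MITF at the tyrosinase gene, and for the interferon response that controls antigen presentation in melanoma. The 8 members followed here were those named IRF1, IRF2, IRF3, IRF4, IRF5, IRF7, IRF8 and IRF9 among the 61587 genes of the expression table.

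The libraries were RNA-seq of A2058, an established human melanoma cell line. They formed 4 groups of 3 libraries, with 1 library of each group in each of 3 batches: cells given the SOX10 siRNA siSOX10_1, cells given a second SOX10 siRNA, siSOX10_2, cells given a control siRNA, siCNTL, and untreated cells. In the siRNA groups, siRNA was used at 12.5 nM with a lipid reagent and RNA was taken at 96 h. No time is given for the untreated cells. The study's title links SOX10, a transcription factor of the melanocyte lineage, to melanoma metastasis through IRF1, so the comparison of SOX10 siRNA with siCNTL asks what happened to IRF1 and its relatives after SOX10 was lowered. All values are from 1 cell line. Whether libraries of 1 group came from different cultures is not stated in the labels, and the p-values therefore rest on the spread among libraries, which may be technical.

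The targeted gene was checked first. SOX10 averaged 9.64 ± 5.47 TPM (transcript abundance per length, scaled to 1000000 per library) under siSOX10_1 and 8.34 ± 3.83 TPM under siSOX10_2, against 31.8 ± 4.40 TPM with siCNTL and 26.9 ± 5.14 TPM in untreated cells (SD, n = 3 each). The siRNA libraries held 30.3% and 26.2% of the siCNTL mean, and those of batch 3 held the least SOX10, 3.32 and 4.24 TPM. All 7 melanoma identity markers averaged at least 1 TPM in each group. Their summed level was 421 to 2827 TPM under siSOX10_1 and 389 to 2107 TPM under siSOX10_2, against 6946 to 11128 TPM with siCNTL and 10118 to 11067 TPM in untreated cells. The 12 leukocyte markers, which bear on IRF4, IRF5 and IRF8, summed to 1.71 to 2.87 TPM under siSOX10_1 and 5.17 to 9.48 TPM under siSOX10_2. They summed to 5.67 to 7.31 TPM with siCNTL and 3.86 to 6.16 TPM in untreated cells. Of these, PTPRC, the pan-leukocyte marker CD45, reached at most 0.209 TPM. The leukocyte markers with the highest single values were FCER1G, ITGAM and NKG7, at up to 4.92, 3.61 and 2.62 TPM. The 8 fibroblast and keratinocyte markers summed to 114 to 162 TPM under siSOX10_1 and 65.2 to 80.9 TPM under siSOX10_2. Their sum was 175 to 207.2 TPM with siCNTL and 151 to 228 TPM in untreated cells. Of these 8, 5 averaged at least 1 TPM under each SOX10 siRNA and 2 in each control group, and the keratin KRT5 was at 0 in all 12 libraries. Most of the sum was LUM, which ranged from 52.6 to 222.8 TPM over the libraries. The next highest, COL1A1, reached 11.5 TPM. The part of the leukocyte, fibroblast and keratinocyte markers in the results below was not tested.

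The table places IRF1 on chromosome 5 (132440440 to 132508719, minus strand, GRCh38) and IRF9 on chromosome 14 (24161265 to 24166565, plus strand). The IRF1 span in the table is wider than in GENCODE v29, which gives 132481609 to 132490798, and the RefSeq start site used below lies near the GENCODE one, well inside the table's span. Both genes are classically induced by STAT proteins, and IRF1 also by NF-kB, so the 250 bases before their RefSeq start sites were searched for those elements, and the IRF1 sequence is shown. Capitals mark matches to the interferon gamma-activated site GAS, searched as TTCNNNGAA, and to the NF-kB consensus. The sequence is from RefSeq on GRCh38.p14, 5′ to 3′ on the minus strand, chr5:132490799-132491023. It holds the first 225 of the 250 bases, since the rest lies in an exon of IRF1 in GENCODE v29.
IRF1: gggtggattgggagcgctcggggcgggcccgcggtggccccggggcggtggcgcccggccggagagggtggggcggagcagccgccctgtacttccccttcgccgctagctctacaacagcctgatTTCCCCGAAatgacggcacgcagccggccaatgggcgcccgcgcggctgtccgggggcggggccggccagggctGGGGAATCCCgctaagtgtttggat
In IRF1 the GAS match TTCCCCGAA began at position -124 and the NF-kB match GGGGAATCCC at position -50, counted from the RefSeq start site. In IRF9 the GAS match TTCTGGGAA began at position -63. GENCODE v29 starts IRF9 earlier, at 24161053, so that match lies inside the GENCODE span of the gene. Of 35097 promoters of the same length, 6.56% held a GAS match and 9.95% an NF-kB match on either strand. Of the 8 members, 5 had a promoter in the reference table (IRF1, IRF4, IRF5, IRF8 and IRF9). None of these 5 held the interferon-stimulated response element core, searched as a pair of GAAA repeats with 2 bases (NN) between them, found in 3.02% of promoters, or the SOX motifs ACAAAG or AACAAT, found in 20.9%. The IRF5 and IRF8 windows lie inside the GENCODE v29 spans of those genes, which start at 128937612 and 85898803. The bases before those GENCODE starts were therefore not searched. No 2 matches overlapped.

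Of the 8 members, 7 passed the filter of at least 1 TPM in at least 3 libraries, and IRF8 did not. IRF4 passed through the control libraries, since all 6 of those but only 2 of the 6 SOX10 siRNA libraries reached 1 TPM. Differences were tested with limma on log2(TPM + 1) over 15738 genes, adjusted by the Benjamini-Hochberg method at a threshold of 0.05, and fold changes are on that scale, which understates changes of low genes. With siSOX10_1, 2 members were higher than siCNTL (IRF2 and IRF7) and 1 was lower (IRF4), where 15.6% of all genes tested were higher and 11.7% lower (27.3% in all). With siSOX10_2, 4 were higher (IRF1, IRF2, IRF7 and IRF9) and 1 was lower (IRF4), where 18.4% of all genes were higher and 10.4% lower (28.8% in all). For the mean of both siRNAs the same 4 members were higher and IRF4 lower, where 20.2% of all genes were higher and 12.9% lower (33.1% in all). IRF3 and IRF5 passed in none of these comparisons. The siRNA comparisons share the siCNTL libraries. In bulk RNA, fewer cells of a kind and less RNA per cell cannot be told apart.

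**Figure D1:**
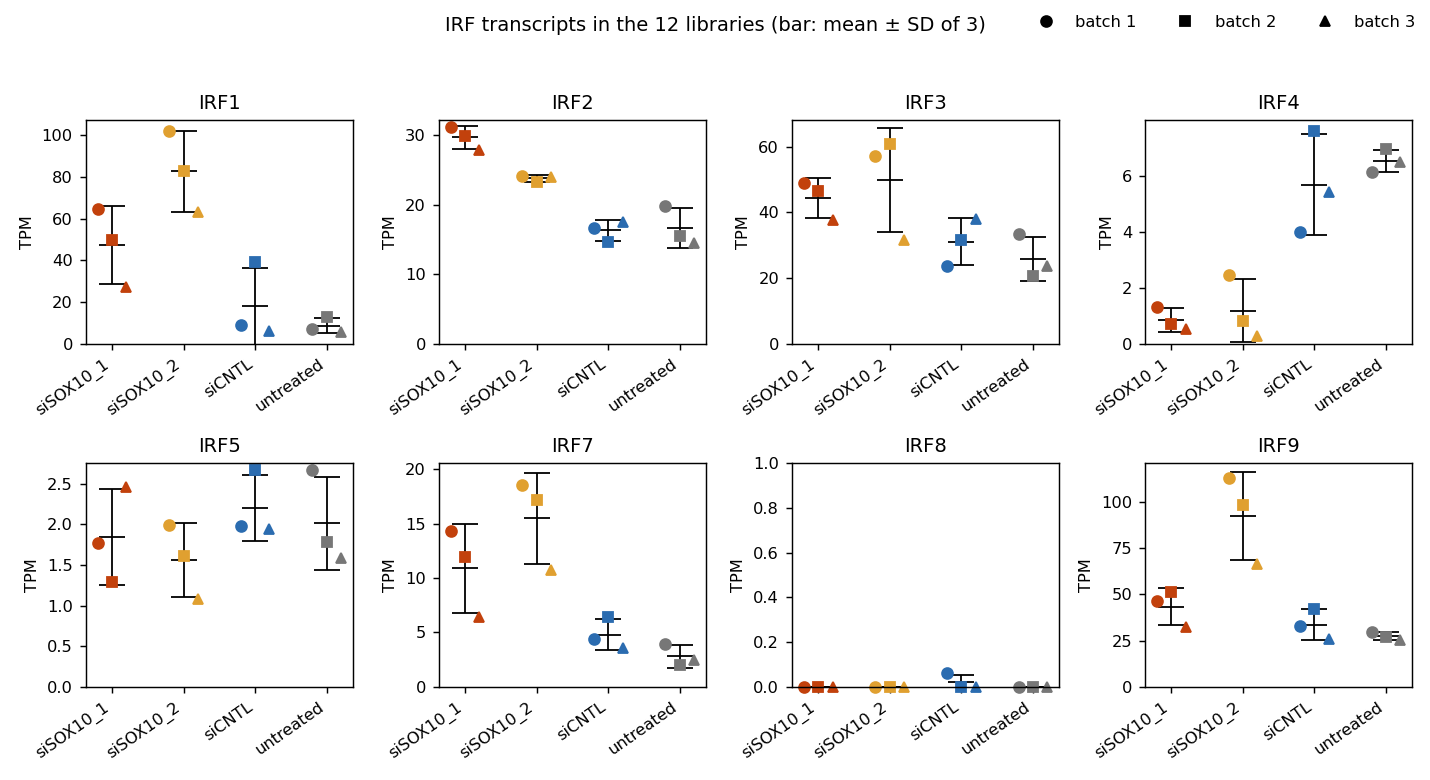
TPM of each IRF gene (vertical axes, each with its own scale) in the siSOX10_1, siSOX10_2, siCNTL and untreated libraries. Points are libraries of batches 1 to 3 and bars are the mean ± SD, cut at 0; IRF1 with siCNTL has 1 library at 39.3 TPM and 2 below 10 TPM.

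IRF1 is an activator induced by interferon gamma and by NF-kB, and it drives antigen presentation and chemokine genes. It reached 64.6, 49.7 and 27.3 TPM under siSOX10_1 and 102, 82.9 and 63.3 TPM under siSOX10_2 in batches 1, 2 and 3. It reached 8.68, 39.3 and 5.79 TPM with siCNTL and 7.10, 12.7 and 5.77 TPM in untreated cells. Every siSOX10_2 library lay above every siCNTL and untreated library. The siSOX10_1 libraries overlapped siCNTL only through the siCNTL library of batch 2, which was above the siSOX10_1 library of batch 3. On the log2 scale IRF1 was higher by 2.57 ± 0.585 under siSOX10_2 (SE, limma adjusted p = 0.00749) and by 2.15 ± 0.507 for the mean of both siRNAs (adjusted p = 0.00783). For siSOX10_1 the difference was 1.72 ± 0.585, which missed the threshold in limma (adjusted p = 0.0514). That comparison passed in 8 of 22 alternatives, among them the batch as a block (adjusted p = 0.0153), a fit without the siCNTL library of batch 2 (2.49, adjusted p = 0.000802) and a fit without the siSOX10_1 library of batch 3 (adjusted p = 0.0478). Without batch 3 the siSOX10_2 difference was 2.24 (adjusted p = 0.0924) and that of the mean 1.89 (adjusted p = 0.0889), both past the threshold in all other alternatives run.

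Within batches the IRF1 difference from siCNTL kept its sign in all 3 batches and was smallest in batch 2. For siSOX10_1 it was 2.76, 0.33 and 2.06 on the log2 scale in batches 1, 2 and 3, and for siSOX10_2 it was 3.41, 1.06 and 3.24. In TPM the siSOX10_2 library held 11.8, 2.11 and 10.9 times the siCNTL library of its batch. Against untreated cells the group means stood 5.53 times higher under siSOX10_1 and 9.70 times higher under siSOX10_2, with no overlap between libraries. IRF1-AS1, an antisense gene that overlaps IRF1, averaged 7.45 ± 2.02 TPM under siSOX10_1 and 8.06 ± 3.02 TPM under siSOX10_2, against 2.92 ± 0.626 TPM with siCNTL (SD, n = 3 each). It passed with both siRNAs (1.09, limma adjusted p = 0.0131 and 1.16, adjusted p = 0.00861). Whether the authors counted by strand is not stated, and reads of the pair cannot be told apart.

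**Figure D2:**
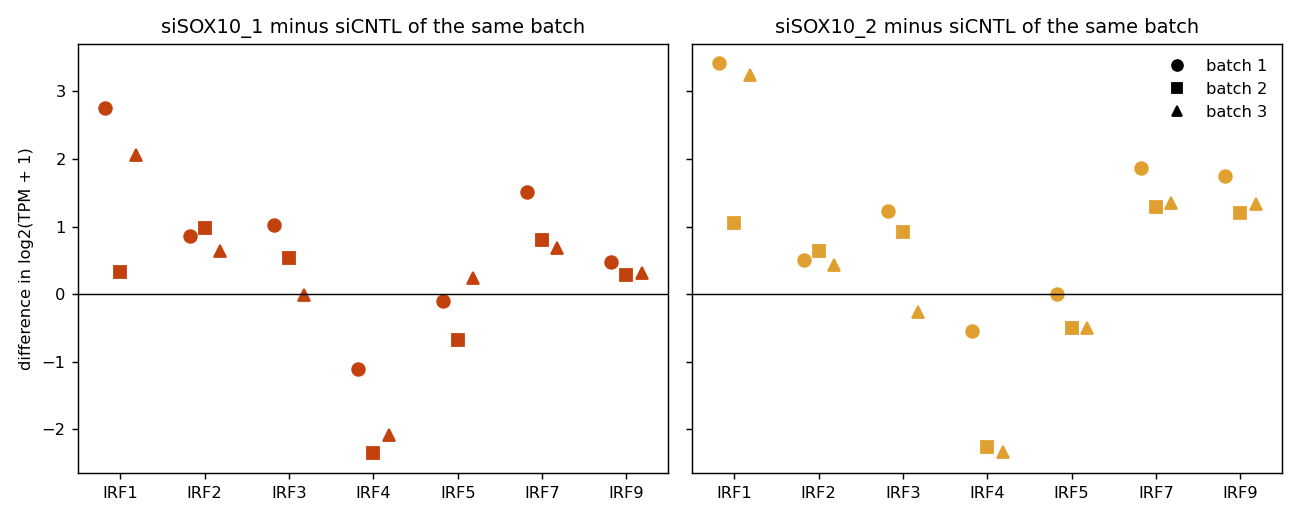
Difference in log2(TPM + 1) between libraries of the same batch for the tested IRF genes, with 1 point for each of 3 batches. The IRF1 difference from siCNTL is above 0 in every batch and lowest in batch 2, at 0.33 for siSOX10_1 and 1.06 for siSOX10_2.

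The 3 siCNTL libraries disagreed on IRF1 more than on any other member. The SD of IRF1 among them was 1.36 on the log2 scale, where the median over all genes tested was 0.246, and 96 of 15738 genes had a larger SD. Among the 10034 genes averaging at least 5 TPM with siCNTL, 52 had a larger one. The SDs of the other tested members among these libraries were 0.13 for IRF2, 0.18 for IRF5, 0.33 for IRF3, 0.35 for IRF7 and IRF9, and 0.39 for IRF4. The library of batch 2 set this spread, since it lay 2.06 above the higher of the other siCNTL libraries. By that excess IRF1 ranked 8th among 10290 genes with a mean of at least 5 TPM. GAS2, a cytoskeletal protein gene, had 29.9 TPM in that library against 4.75 and 4.51 TPM in the other two. LCOR, a nuclear receptor corepressor gene, had 48.6 TPM there against 8.54 and 8.40 TPM in the other two, and also ranged from 11.1 to 57.6 TPM among untreated libraries. The untreated library of batch 2 was likewise the highest of its group for IRF1, by 0.76.

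**Figure D3:**
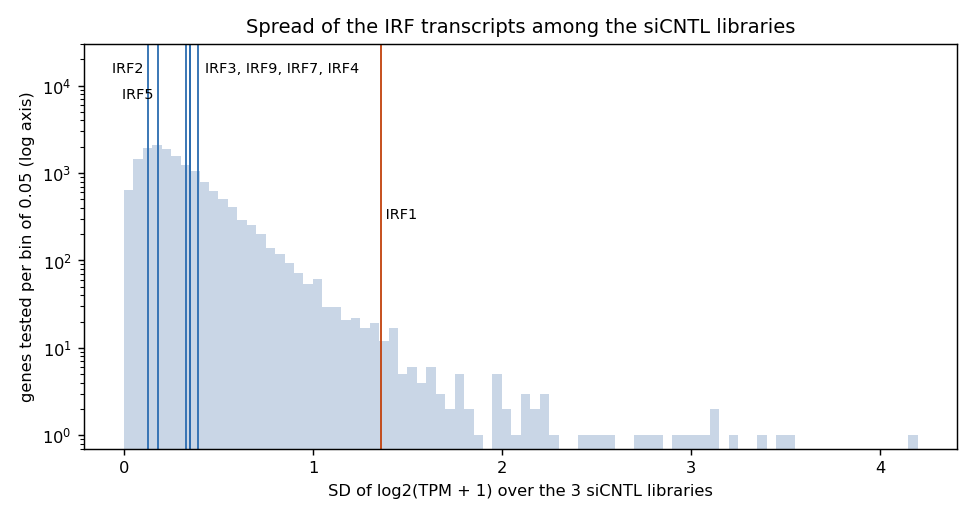
Number of tested genes (vertical log axis) by the SD of log2(TPM + 1) over the 3 siCNTL libraries, in bins of 0.05, with lines at the tested IRF genes. IRF1 stands at 1.36, where 96 of 15738 genes are larger, and the other members lie between 0.13 and 0.39.

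The siCNTL library of batch 2 was also the highest of its group for IRF4, IRF5, IRF7 and IRF9, by 0.42, 0.30, 0.46 and 0.34 over the next, and not for IRF2 or IRF3. Of 19 measured targets of ISGF3, the interferon-activated complex that contains IRF9, 14 were highest there, with a median of 0.44 above the mean of the other two. Over all genes tested that library was the highest for 43.0%, with a median of 0.11. Of 13 measured partners and inhibitors of the family, 9 were highest there. The other lists were nearer to all genes or below, with 6 of 12 receptor and JAK-STAT genes, 9 of 18 genes that activate IRF3 and IRF7, 9 of 24 IRF1 targets and 3 of 9 NF-kB genes highest there. These counts are descriptions of 1 library and carry no test.

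IRF2 binds the same sites as IRF1 and is known mainly as its repressor. It reached 31.2, 29.9 and 28.0 TPM under siSOX10_1 and 24.2, 23.3 and 24.0 TPM under siSOX10_2, against 16.7, 14.6 and 17.6 TPM with siCNTL and 19.9, 15.5 and 14.5 TPM in untreated cells. All 6 SOX10 siRNA libraries lay above all 6 control libraries, as they did for 14% of all genes tested, and IRF2 was the only member of the 8 to separate upward. It was higher by 0.83 ± 0.151 under siSOX10_1 (SE, limma adjusted p = 0.00139) and by 0.52 ± 0.151 under siSOX10_2 (adjusted p = 0.0193). Each siSOX10_2 library lay below each siSOX10_1 library, but the difference of -0.31 did not pass (adjusted p = 0.381). The siSOX10_2 call was lost under median-of-ratios scaling (0.39, adjusted p = 0.0858), which shifts the median of all genes in that comparison by -0.128, and when the fit held the compared groups alone (adjusted p = 0.0520). It was also lost without the siCNTL library of batch 2 (adjusted p = 0.0706) or the siSOX10_2 library of batch 1 (adjusted p = 0.0541).

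The balance of IRF1 to IRF2 differed between libraries. Which of the genes is higher in TPM depends on the lengths used, listed as 5153 bases for IRF1 and 2257 for IRF2. The TPM of IRF1 over IRF2 was 2.07, 1.66 and 0.977 under siSOX10_1 and 4.22, 3.56 and 2.64 under siSOX10_2. It was 0.519, 2.68 and 0.329 with siCNTL and 0.357, 0.822 and 0.398 in untreated cells. The siCNTL library of batch 2 was the only control library of the 6 in which IRF1 exceeded IRF2, and the siSOX10_1 library of batch 3 the only SOX10 siRNA library in which it did not.

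IRF3 is the ubiquitous factor that the kinase TBK1 activates after viral nucleic acid is sensed. It reached 49.0, 46.4 and 37.5 TPM under siSOX10_1 and 57.1, 60.9 and 31.5 TPM under siSOX10_2, against 23.7, 31.6 and 37.9 TPM with siCNTL and 33.3, 20.7 and 23.5 TPM in untreated cells. Batches 1 and 2 gave higher values with both siRNAs than with siCNTL, and batch 3 did not, with differences of -0.02 for siSOX10_1 and -0.26 for siSOX10_2. The differences were 0.51 ± 0.256 for siSOX10_1 (SE, limma adjusted p = 0.161), 0.63 ± 0.256 for siSOX10_2 (adjusted p = 0.0836) and 0.57 ± 0.222 for their mean (adjusted p = 0.0647). With untreated cells as the control, or without batch 3, all passed. Without batch 3 the differences were 0.78 (adjusted p = 0.0141), 1.08 (adjusted p = 0.00229) and 0.93 (adjusted p = 0.00196). Without the siSOX10_2 library of batch 3 alone, siSOX10_2 passed (adjusted p = 0.0103) and so did the mean (adjusted p = 0.00908), and the mean also passed without the siCNTL library of batch 3 (adjusted p = 0.0447). BCL2L12, which overlaps IRF3 on the opposite strand, was higher by 0.80 ± 0.148 under siSOX10_2 (adjusted p = 0.00139) and differed by 0.14 ± 0.148 under siSOX10_1 (adjusted p = 0.530).

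IRF7 is the interferon-inducible amplifier of type I interferon. It reached 14.3, 11.9 and 6.39 TPM under siSOX10_1 and 18.5, 17.2 and 10.7 TPM under siSOX10_2, against 4.38, 6.40 and 3.59 TPM with siCNTL and 3.97, 1.97 and 2.42 TPM in untreated cells. The siSOX10_2 libraries lay above all control libraries, and the siSOX10_1 library of batch 3 was level with the siCNTL library of batch 2. IRF7 was higher by 1.50 ± 0.319 under siSOX10_2 (SE, limma adjusted p = 0.00341) and by 1.00 ± 0.319 under siSOX10_1 (adjusted p = 0.0337). The siSOX10_1 call was lost without the siSOX10_1 library of batch 1 (adjusted p = 0.132) or batch 2 (adjusted p = 0.0993), without the siCNTL library of batch 1 (adjusted p = 0.0954) or batch 3 (adjusted p = 0.0989), when the fit held the compared groups alone (adjusted p = 0.0558) and with no filter (adjusted p = 0.0842). Within batches the difference from siCNTL was 1.51, 0.80 and 0.69 for siSOX10_1 and 1.86, 1.30 and 1.35 for siSOX10_2.

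IRF9 is the DNA-binding subunit of the interferon-activated complex ISGF3. It reached 46.4, 51.5 and 32.2 TPM under siSOX10_1 and 113, 98.2 and 66.2 TPM under siSOX10_2, against 33.0, 42.1 and 25.6 TPM with siCNTL and 29.9, 27.0 and 25.3 TPM in untreated cells. The siSOX10_2 libraries lay above all others, and the siSOX10_1 libraries overlapped those of siCNTL. IRF9 was higher by 1.43 ± 0.229 under siSOX10_2 (SE, limma adjusted p = 0.000527), and the siSOX10_1 difference of 0.36 ± 0.229 did not pass (adjusted p = 0.275). IRF9 was the only member of 7 tested to differ between the siRNAs, where 1.56% of all genes tested did (1.07% higher, 0.489% lower), at 1.07 ± 0.229 for siSOX10_2 over siSOX10_1 (adjusted p = 0.0380). Within batches that difference was 1.27, 0.92 and 1.02. The call was lost in 13 of 21 alternatives, among them leaving out any 1 untreated library (adjusted p = 0.0536 to 0.0607) or any 1 siSOX10_1 library (adjusted p = 0.0581 to 0.108). It was also lost without the siCNTL library of batch 1 (adjusted p = 0.0578) or the siSOX10_2 library of batch 1 (adjusted p = 0.115) or 2 (adjusted p = 0.126).

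**Figure D4:**
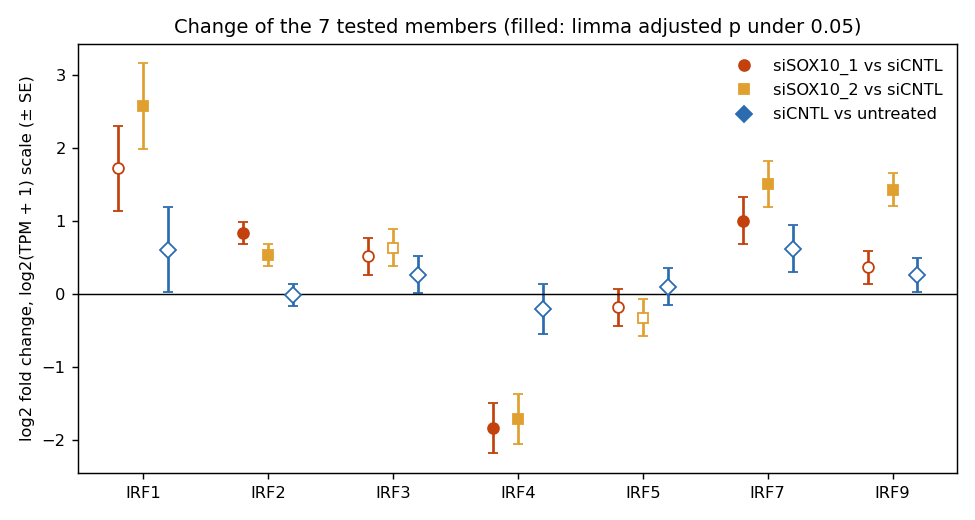
Difference in log2(TPM + 1) with its SE for each tested IRF gene, for siSOX10_1 against siCNTL, siSOX10_2 against siCNTL and siCNTL against untreated cells (n = 3 libraries each), filled where limma's adjusted p was under 0.05. IRF9 stands at 0.36 under siSOX10_1 and 1.43 under siSOX10_2, and IRF4 is low with both, at -1.85 and -1.72.

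IRF4, a lineage factor of lymphocytes and melanocytes, moved the other way. It reached 1.32, 0.683 and 0.523 TPM under siSOX10_1 and 2.44, 0.796 and 0.272 TPM under siSOX10_2, against 4.01, 7.62 and 5.44 TPM with siCNTL and 6.15, 6.96 and 6.48 TPM in untreated cells. No SOX10 siRNA library of the 6 reached the level of any of the 6 control libraries, a pattern seen for 9.37% of all genes tested. IRF4 was lower, at -1.85 ± 0.343 under siSOX10_1 (SE, limma adjusted p = 0.00159) and at -1.72 ± 0.343 under siSOX10_2 (adjusted p = 0.00231). Within batch 1 the siSOX10_2 library held 0.608 of the siCNTL level, against 0.104 in batch 2 and 0.05 in batch 3. Among 10 melanocyte genes listed around IRF4, 8 fell and 1 rose for the mean of both siRNAs. Of all genes tested, 12.9% were lower and 20.2% higher in that comparison. The list includes SOX10 itself, the siRNA target, and was drawn up with results of these libraries known. OCA2, another of the 8, averaged 0.681 ± 0.199 TPM under siSOX10_1 and 0.445 ± 0.126 TPM under siSOX10_2. It averaged 3.71 ± 1.01 TPM with siCNTL and 5.72 ± 1.25 TPM in untreated cells. OCA2 passed the filter through control libraries, so it could enter the test only by being lower under SOX10 siRNA. MLANA, a melanosome antigen, fell by 3.33 ± 0.665 (adjusted p = 0.00415), and TYR, tyrosinase, fell by 2.97 ± 0.620 (adjusted p = 0.00521). MITF fell by 2.32 ± 0.479 (adjusted p = 0.00450), and TFAP2A, a neural crest and melanocyte factor, rose by 1.57 ± 0.184 (adjusted p = 3.6e-05).

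IRF5, an inflammatory factor of myeloid cells, stayed low in every library. It ranged from 1.29 to 2.46 TPM under siSOX10_1 and from 1.08 to 1.99 TPM under siSOX10_2, against 1.94 to 2.67 TPM with siCNTL and 1.58 to 2.67 TPM in untreated cells. The mean of both siRNAs differed from siCNTL by -0.26 ± 0.220 (SE, limma adjusted p = 0.407), and all groups overlapped. IRF8, a factor of myeloid and B cell development, was listed at 0 in 11 libraries and at 0.06 TPM in the siCNTL library of batch 1. TPM keep no read counts, so no detection limit can be given for IRF8.

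The order of the 8 transcripts by mean TPM changed with SOX10 siRNA. Orders and shares of different genes in TPM depend on the length used for each gene. In untreated cells IRF9 (27.4 ± 2.30 TPM) and IRF3 (25.8 ± 6.60 TPM) led, then IRF2 (16.6 ± 2.87 TPM) and IRF1 (8.53 ± 3.69 TPM, SD, n = 3 each). IRF9 and IRF3 overlapped there, and so did IRF1 and IRF4. With siCNTL the order was IRF9, IRF3, IRF1 and IRF2, each overlapping the next. With siSOX10_1, IRF1 (47.2 ± 18.7 TPM), IRF3 (44.3 ± 6.04 TPM) and IRF9 (43.4 ± 9.97 TPM) overlapped at the top. With siSOX10_2, IRF9 (92.5 ± 23.9 TPM) and IRF1 (82.8 ± 19.4 TPM) overlapped and stood apart from IRF3 (49.8 ± 15.9 TPM). The 8 genes together summed to 134 to 208.6 TPM under siSOX10_1 and 197 to 319 TPM under siSOX10_2, against 92.5 to 144 TPM with siCNTL and 79.6 to 103 TPM in untreated cells. IRF1 made up 20.3% to 31.0% of that sum under siSOX10_1 and 29.1% to 32.1% under siSOX10_2, against 5.91% to 27.2% with siCNTL and 6.90% to 14.7% in untreated cells.

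No member passed the limma test between siCNTL and untreated cells. Of 15738 genes, 0 passed after adjustment and 581 had an unadjusted p under 0.05, and 0 of the 7 members were among those. IRF7 came closest, at 0.62 ± 0.319 (unadjusted p = 0.0755, adjusted p = 1). IRF1 differed by 0.60 ± 0.585 (adjusted p = 1) and by -0.17 without the siCNTL library of batch 2.

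The interferon system around the family was read from gene lists, for the mean of both siRNAs against siCNTL. All 8 interferon genes listed failed the filter, and IFNB1, interferon beta, reached at most 0.395 TPM in any library. Of 12 receptor and JAK-STAT genes, 9 were higher and 0 lower, where 20.2% of all genes tested were higher and 12.9% lower. Their median was 0.54, and that over all genes 0.08. With untreated cells as the control 1 was lower. IFNGR1, a chain of the interferon gamma receptor, averaged 85.0 ± 2.85 TPM under siSOX10_1 and 91.8 ± 9.89 TPM under siSOX10_2, against 41.3 ± 3.62 TPM with siCNTL (SD, n = 3 each). It rose by 1.08 ± 0.104 (SE, limma adjusted p = 7.1e-06). TYK2, a JAK family kinase bound to cytokine receptors, rose by 0.73 ± 0.194 (adjusted p = 0.0113) and STAT2, a subunit of ISGF3, by 0.69 ± 0.232 (adjusted p = 0.0347). STAT2 passed with neither siRNA alone (limma adjusted p = 0.0966 for siSOX10_1 and 0.0517 for siSOX10_2).

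Of 9 NF-kB genes, 5 were higher and 0 lower for the mean of both siRNAs, against 20.2% and 12.9% of all genes, with a median of 0.58. NFKB2, a precursor subunit, rose by 1.35 ± 0.145 (SE, limma adjusted p = 1.7e-05), and NFKBIA, the inhibitor that NF-kB itself induces, rose by 1.23 ± 0.248 (adjusted p = 0.00228). RELB and RELA, both subunits, rose by 0.75 ± 0.154 (adjusted p = 0.00229) and 0.66 ± 0.144 (adjusted p = 0.00325). For siSOX10_1 alone 5 were higher, where 15.6% of all genes were, which fell to 2 without the siCNTL library of batch 2 and to 3 under median-of-ratios scaling.

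Of 18 genes that activate IRF3 and IRF7, 4 were higher and 1 lower, against 20.2% and 12.9% of all genes, with a median of 0.14. STING1, the adaptor of cytosolic DNA sensing, averaged 23.1 ± 3.80 TPM under siSOX10_1 and 45.6 ± 10.9 TPM under siSOX10_2, against 17.6 ± 3.24 TPM with siCNTL (SD, n = 3 each). It was higher under siSOX10_2 by 1.31 (limma adjusted p = 0.000545) and differed between the siRNAs (siSOX10_2 over siSOX10_1, 0.94, adjusted p = 0.0468). DDX58, the RNA sensor RIG-I, rose by 0.90 for the mean (adjusted p = 0.0232), and OPTN, a regulator of TBK1 signalling, fell by 0.74 (adjusted p = 0.00110). DDX58 passed under siSOX10_2 (1.38, limma adjusted p = 0.00546) and not under siSOX10_1 (0.41, adjusted p = 0.377). For siSOX10_1 alone 1 gene was higher and 2 were lower, where 15.6% of all genes tested were higher and 11.7% lower. The count of higher genes was 3 with the batch as a block, 2 without the siCNTL library of batch 2 and 0 without batch 3. For the mean, 2 were lower with the block, under median-of-ratios scaling or without the siCNTL library of batch 2, 3 without batch 3 and 4 with untreated cells as the control.

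Of 13 measured partners and inhibitors of the family, 4 were higher and 0 lower, against 20.2% and 12.9% of all genes. With the batch as a block or under median-of-ratios scaling 1 was lower, and without batch 3, 2 were. IRF2BP2, a corepressor that binds IRF2, averaged 47.9 ± 10.9 TPM under siSOX10_1 and 42.8 ± 7.01 TPM under siSOX10_2, against 13.3 ± 2.24 TPM with siCNTL (SD, n = 3 each). It rose by 1.68 ± 0.170 (SE, limma adjusted p = 1.1e-05). SOCS1 and SOCS3, feedback inhibitors of cytokine signalling, rose by 1.48 ± 0.203 (adjusted p = 0.000126) and 0.73 ± 0.250 (adjusted p = 0.0385), and IRF2BPL, a relative of IRF2BP2, by 0.76 ± 0.182 (adjusted p = 0.00591). SOCS3 passed under siSOX10_2 (1.14, limma adjusted p = 0.00978) and not under siSOX10_1 (0.32, adjusted p = 0.453). SOCS1 passed the filter only through SOX10 siRNA libraries. For siSOX10_2 alone 1 was lower, where 10.4% of all genes tested were lower. It was PTPN2, a phosphatase that restrains cytokine signalling, at -0.68 (adjusted p = 0.0395). That call was lost without the siCNTL library of batch 2 and with untreated cells as the control.

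Of 24 measured IRF1 target genes, 9 were higher and 1 lower, against 20.2% and 12.9% of all genes, with a median of 0.31. Of the 9, CCL5, CXCL10 and SOCS1 reached 1 TPM in no control library. They passed the filter only through SOX10 siRNA libraries, so they could enter the test only by being higher there. IL15, another of the 9, was at 0.775, 0.582 and 0.375 TPM with siCNTL and averaged 0.82 ± 0.334 TPM in untreated cells. It averaged 2.16 ± 1.03 TPM under siSOX10_1 and 3.10 ± 0.520 TPM under siSOX10_2, and likewise could not pass the filter without SOX10 siRNA libraries. CCL5, a T cell chemokine, averaged 99.4 ± 55.0 TPM under siSOX10_1 and 132 ± 49.0 TPM under siSOX10_2, against 0.233 ± 0.186 TPM with siCNTL (SD, n = 3 each). ITGA3, an integrin subunit, averaged 182 ± 36.0 TPM under siSOX10_1 and 153 ± 12.5 TPM under siSOX10_2, against 5.40 ± 1.07 TPM with siCNTL. TNFSF10, the death ligand TRAIL, and EPHA2, a receptor kinase, rose by 2.44 (limma adjusted p = 0.000237) and 1.81 (adjusted p = 2.5e-06). ITGA3 and EPHA2 stand in the list because the study names them, so their direction is not independent of these samples. GBP2, an interferon gamma-induced GTPase, was the gene that was lower, at -0.66 (adjusted p = 0.0144), and 0 genes were without the siCNTL library of batch 2 and 2 under median-of-ratios scaling. GBP2 passed under siSOX10_2 (-0.825, limma adjusted p = 0.0112) and not under siSOX10_1 (-0.50, adjusted p = 0.102).

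Of 19 measured ISGF3 targets, 7 were higher and 0 lower, against 20.2% and 12.9% of all genes, with a median of 0.31. Without batch 3, 1 was lower. BST2, the virus-tethering protein tetherin, averaged 432 ± 81.4 TPM under siSOX10_1 and 368 ± 139 TPM under siSOX10_2, against 45.3 ± 14.9 TPM with siCNTL (SD, n = 3 each). IFI44L, an interferon-induced gene, rose by 2.01 ± 0.273 (SE, limma adjusted p = 0.000117) and OASL, an antiviral protein of the OAS family, by 1.05 ± 0.321 (adjusted p = 0.0228). OASL passed under siSOX10_2 (1.45, adjusted p = 0.0103) and not under siSOX10_1 (0.65, adjusted p = 0.218). IFI44L passed the filter through SOX10 siRNA libraries. It was at 1.195, 0.366 and 0.683 TPM with siCNTL and averaged 0.372 TPM in untreated cells. For siSOX10_1 alone 4 were higher and 2 lower, where 15.6% of all genes tested were higher and 11.7% lower. Those 2 were ISG15, a ubiquitin-like modifier, at -0.69 (adjusted p = 0.0119), and IFIT1, which binds viral RNA, at -0.69 (adjusted p = 0.0499). Under siSOX10_1, 0 were lower without the siCNTL library of batch 2 or with untreated cells as the control. For siSOX10_2, 7 were higher and 0 lower, where 18.4% of all genes tested were higher and 10.4% lower. Between the siRNAs 0 of the 19 differed after adjustment in limma, with 5 at an unadjusted p under 0.05, where 1.56% of all genes differed. STAT2 stands both here and among the JAK-STAT genes, and SOCS1 both among the partners and the IRF1 targets, so the lists share genes.

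**Figure D5:**
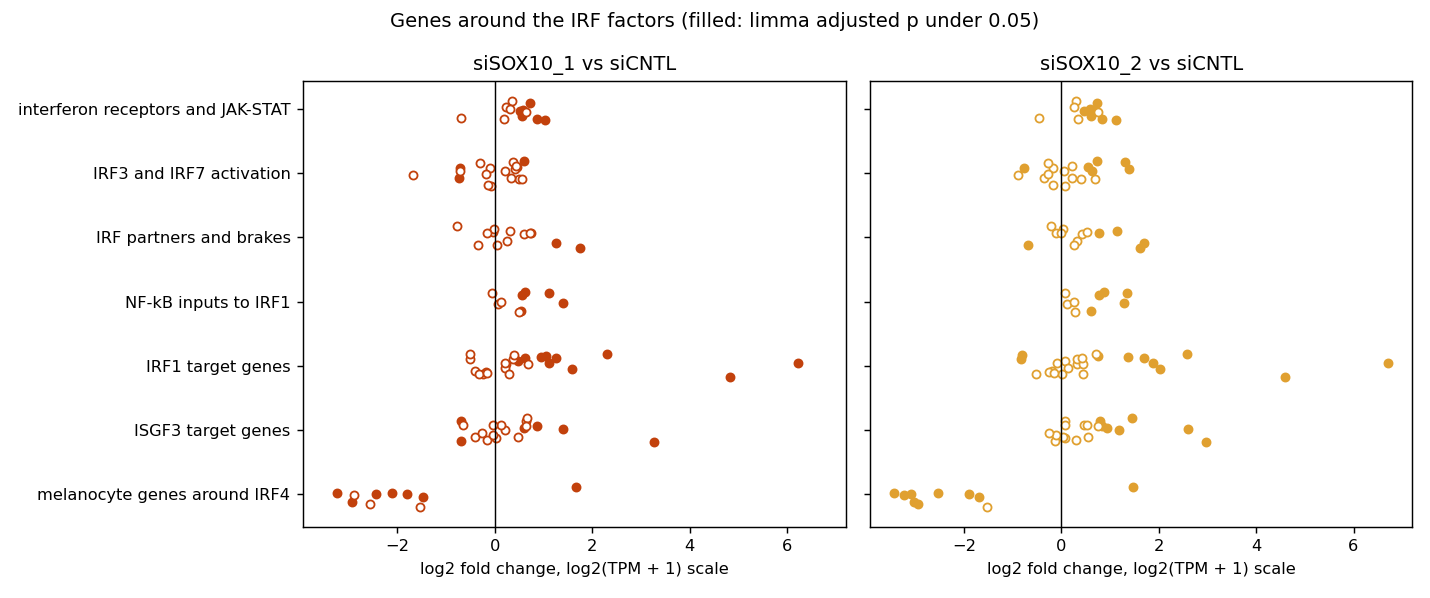
Log2 fold change against siCNTL, on the log2(TPM + 1) scale, of each tested gene (points, spread vertically for legibility) in 7 gene lists, for siSOX10_1 (left) and siSOX10_2 (right), filled where limma's adjusted p was under 0.05. The receptor and JAK-STAT list has 6 filled points above 0 for siSOX10_1 and 7 for siSOX10_2, and the melanocyte list has 6 and 8 below 0. Of all genes tested, 15.6% and 18.4% were higher and 11.7% and 10.4% lower, in the same order of siRNAs.

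The genes whose pattern over the 12 libraries was most like that of each member were ranked by Pearson's r of log2(TPM + 1), among genes averaging at least 5 TPM. The libraries fall into SOX10 siRNA and control libraries, so any gene that differs between these will rank high. For IRF1 they were CEBPB (r = 0.974), RASSF1 (r = 0.961), IFITM1 (r = 0.956), RIOK2 (r = 0.954) and KIFC2 (r = 0.949). For IRF2 CLK4, HLA-C and ADAM15 led (r = 0.960 to 0.958), and for IRF7 POLE, EIF2AK2 and SRPX2 (r = 0.971 to 0.969). For IRF9 MTMR11, FAM86DP and ARHGEF19 led (r = 0.966 to 0.954), for IRF4 VPS41, GNPTAB and IL17D (r = 0.978 to 0.972), and for IRF3 SH3BP1, CNOT1 and EME1 (r = 0.947 to 0.924). IRF5 had the lowest leading values (EXOC6, PAK2 and SCD5, r = 0.888 to 0.850). These values share libraries and are descriptions.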

How the data were processed

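The authors deposited 1 table of TPM, and per the submitters' processing notes bcl2fastq and DRAGEN were used. No source used here gives their versions, the build, the annotation or a strand setting. GENCODE v29 held 94.8% of the gene identifiers, 99.9% of these at the same place, so coordinates are given as GRCh38. TPM are scaled to 1000000 per library, so a rise in abundant genes lowers others, and they keep no depth, which is unknown; no counting interval can be given. Each column was matched to its library by the number in the library's name. Members and gene lists were chosen with earlier results of these data known.

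Log2(TPM + 1) of the 15738 genes that reached 1 TPM in 3 or more of the 12 libraries was fitted with limma 3.58.1 in R 4.3.3 (group means, trend and robust empirical Bayes, 8 residual degrees of freedom, Benjamini-Hochberg adjustment). The script was tested on simulated data. All members are named, with the called list genes of the largest change, genes most like each member, and others (among them GAS2, LCOR, PTPN2, ISG15, IFIT1 and BCL2L12) picked after their values were seen. List counts include a few genes that are not reported here by name. Per the labels the replicate number is a batch, so numbers pair the libraries. Deviations from group means correlated weakly within batches (median r = 0.179, from -0.0434 to 0.484, 18 pairs). Between batches the median r was -0.0974 (36 pairs). Subtracting group means pushes that value below 0, so it is no separate evidence. Alternatives were the batch as a block, each library left out, the compared groups alone, other filters and pseudocounts, median-of-ratios scaling, plain empirical Bayes, untreated cells as control and no batch 3. Promoter matches were searched in RefSeq sequences on both strands with Python 3.11.15.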

Additional observations from a re-analysis of the deposited data

Results flagged for a closer look

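In the main fit IRF9 passed a test of the difference between the 2 SOX10 siRNAs, but not in most alternatives. Its log2 fold change for siSOX10_2 over siSOX10_1 was 1.07 ± 0.229 (SE, limma adjusted p = 0.0380). All 3 siSOX10_2 libraries lay above all 3 siSOX10_1 libraries. The call held in 8 of 21 alternatives, among them the batch as a block, and the adjusted p ranged from 0.00350 to 0.138. It was lost without any 1 untreated library, any 1 siSOX10_1 library, the siCNTL library of batch 1, or the siSOX10_2 library of batch 1 or 2. It was also lost with the compared groups alone, with no filter, with a pseudocount of 0.1 and without the trend and robust options. The SOX10 level of these groups was 9.64 ± 5.47 TPM under siSOX10_1 and 8.34 ± 3.83 TPM under siSOX10_2 (SD, n = 3 each), and its part in the IRF9 difference was not tested.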

How the results depend on the processing

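Of 751 values of single members under the alternatives, 699 kept their direction and side of the threshold, 25 lost a call, 17 gained one and 10 changed sign with no call on either side. For siSOX10_1 the number of members called was 5 in place of 3 with untreated cells as the control. For siSOX10_2 against siSOX10_1 it was 0 in place of 1 when the fit held the compared groups alone, with no filter, with a pseudocount of 0.1 and without the trend and robust options, and 0 to 1 with each library left out. The number of members called under siSOX10_2 and for the mean of both siRNAs stayed within 1.5 times in every alternative run. Under median-of-ratios scaling the IRF2 mean under siSOX10_2 was 22.0 TPM in place of 23.8 TPM.

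The signs that turned were those of IRF5 (0.00739 without the siSOX10_1 library of batch 3, 0.15 without batch 3, -0.29 to 0.00739 over single libraries left out), IRF4 (-0.26 without the siSOX10_2 library of batch 1, to 0.46 over single libraries left out) and IRF3 (-0.00525 and -0.051 without the siSOX10_2 library of batch 1 or 2, likewise to 0.41) between the siRNAs. Between siCNTL and untreated cells they were those of IRF2 (0.11 without the untreated library of batch 1, 0.054 without the siCNTL library of batch 2, from -0.10 over single libraries left out), IRF5 (-0.00557 without the untreated library of batch 3, -0.00664 without the siCNTL library of batch 2, likewise to 0.25) and IRF1 (-0.17 without the siCNTL library of batch 2, likewise to 1.12). The cause was not tested. With the batch as a block, 4 of 7 members were called under siSOX10_1, IRF1 being the one gained. The counts of list genes under the block, the scaling, untreated cells as control, and without the siCNTL library of batch 2 or batch 3 were chosen after seeing the data. The 3 libraries a group and TPM without depth limit the precision of all values.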
